A study of Mus musculus with 12 samples.

Results

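The genes of the terminal complement pathway, C-reactive protein and kininogen were examined in Kupffer cells and blood monocytes. The 8 genes were chosen by symbol: Hc, C6, C7, C8a, C8b, C9, Crp and Kng1, out of 248 inflammation-related genes of the panel. Each mRNA was counted by the nanostring approach, in which a colour-coded reporter probe binds its target and the bound reporters are counted without amplification. There were 6 samples of monocytes (MNCs) from blood and 6 of Kupffer cells (KCs), which are macrophages resident in liver, all from Balb/C mice. No treatment is named, and the age of the mice is not given in the labels. Magnetic beads against F4/80, a protein on the surface of macrophages in the mouse, were used for both sorts, and only the livers were perfused and digested with collagenases first. By the labels each sample pooled the cells of 5 mice and 100 ng of total RNA was used; by the methods of the study pools held 4 to 5 mice.

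The terminal pathway is the last stage of complement activation. Cleavage of C5 releases the attractant C5a and leaves C5b, which binds C6 and C7 in turn. The complex then takes up C8, made of an alpha, a beta and a gamma chain, and several copies of C9, which form the pore of the membrane attack complex. C-reactive protein is a pentraxin that binds phosphocholine and can start the classical pathway, and in the mouse it is only a weak acute phase protein. Kininogen is the precursor of bradykinin and part of the contact system. All of these proteins circulate in plasma, and hepatocytes are the best known source of most of them.

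The normalized counts of the 248 genes summed to 175342 to 189849 per monocyte sample and to 171375 to 232593 per Kupffer cell sample. They rested on 162988 to 348248 and on 84401 to 145662 counted molecules above the background. The background of a lane was its highest negative control. This lay at 5 to 27 counts for monocytes and at 7 to 14 for Kupffer cells. The file gives this count, not multiplied by the factor of the lane, for any gene that fell below, so such a value is not a level. On the normalized scale the background lay at 5.63 to 15.7 for monocytes and at 11.7 to 30.4 for Kupffer cells. Log2 values of different samples correlated with r of 0.957 to 0.997 within monocytes and 0.939 to 0.988 within Kupffer cells, across genes, which are not independent replicates.

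Of the 8 genes, 7 were higher in Kupffer cells at an adjusted p under 0.05 from limma, and none was lower. Of all genes tested 35.1% were higher and 21.4% lower, 56.5% in all. In the same 7 genes every Kupffer cell sample was above every monocyte sample, as in 25.8% of all genes, and the reverse was seen in none of the 8 and in 15.7% of all genes. The median log2 fold change of the 8 genes was 4.94, or 5.00 with limits in place of fitted values, beside 0.05 over all 248 genes. C7 was the exception. Together the 8 genes made up 1.94% to 5.52% of the normalized counts of a Kupffer cell sample (median 4.11%). These were pools of sorted cells, in which fewer cells of a type and less RNA per cell cannot be told apart.

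Hc, the mouse gene of C5, had 481 normalized counts in the lowest Kupffer cell sample, a median of 1347 and 1975 in the highest. All 6 monocyte samples were at the background, so that Hc was at least 66.5-fold higher in Kupffer cells (adjusted p = 3.66e-08 from limma). No Kupffer cell sample came near the monocyte values. The limit takes geometric means and, in each monocyte lane, the higher of the listed background and the background multiplied by the factor of the lane.

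C6, which binds C5b first, ranged from 197 to 759 normalized counts in Kupffer cells with a median of 411. Monocyte sample 2 stood at 6.75, against a background of 5 counts in that lane, and the other 5 monocyte samples were at the background. Kupffer cells exceeded monocytes by 4.44 on the log2 scale (SE 0.37, limma adjusted p = 2.79e-07). The lowest Kupffer cell sample was far above the highest monocyte value.

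C7, the next component, was at or close to the background in both cell types. Kupffer cell samples 4 and 5 and all 6 monocyte samples were at the background. In Kupffer cell samples 1, 2, 3 and 6 only 11, 18, 9 and 9 molecules were counted, with backgrounds of 9, 14, 9 and 7. These came to 14.4, 32.9, 17.5 and 19.0 normalized counts, with scaled backgrounds of 25.5 and 30.4 in samples 4 and 5. The log2 fold change of 0.03 (95% interval -0.72 to 0.78, adjusted p = 0.94 from limma) mostly compares background with background, and it was 0.36 (adjusted p = 0.402 from limma) with each background at the higher of its listed and scaled value. A difference in C7 was not detectable at this depth.

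C8a and C8b encode the alpha and beta chains of C8. C8a had 1160 normalized counts in the lowest Kupffer cell sample, a median of 2882 and 4836 in the highest. C8b ranged from 334 to 877, with a median of 523. All monocyte samples were at the background for both, which puts the rise at 159-fold or more for C8a (adjusted p = 2.90e-09 from limma) and at 32.8-fold or more for C8b (adjusted p = 4.58e-08). The gene of the gamma chain was not analysed here.

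C9, the pore-forming component, had 815 normalized counts in the lowest Kupffer cell sample, a median of 1667 and 2909 in the highest. It was at least 94.2-fold higher than in monocytes (adjusted p = 6.62e-09 from limma). The 6 Kupffer cell samples were again all above the 6 monocyte samples, which were at the background.

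Crp ranged from 267 to 623 normalized counts in Kupffer cells, with a median of 515, at least 27.0-fold above the monocyte background (adjusted p = 6.69e-08 from limma). It was the steadiest of the 7 measured genes, with an SD of 0.47 on the log2 scale. Kng1 ranged from 278 to 926, with a median of 564, at least 31.4-fold above the monocyte background (adjusted p = 7.28e-08 from limma). A closely similar gene, Kng2, is the next protein-coding gene to Kng1 in GRCm38.p6. The probe sequence is not given in the sources used here, so counts of Kng2 mRNA under Kng1 cannot be told apart.

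**Figure D1:**
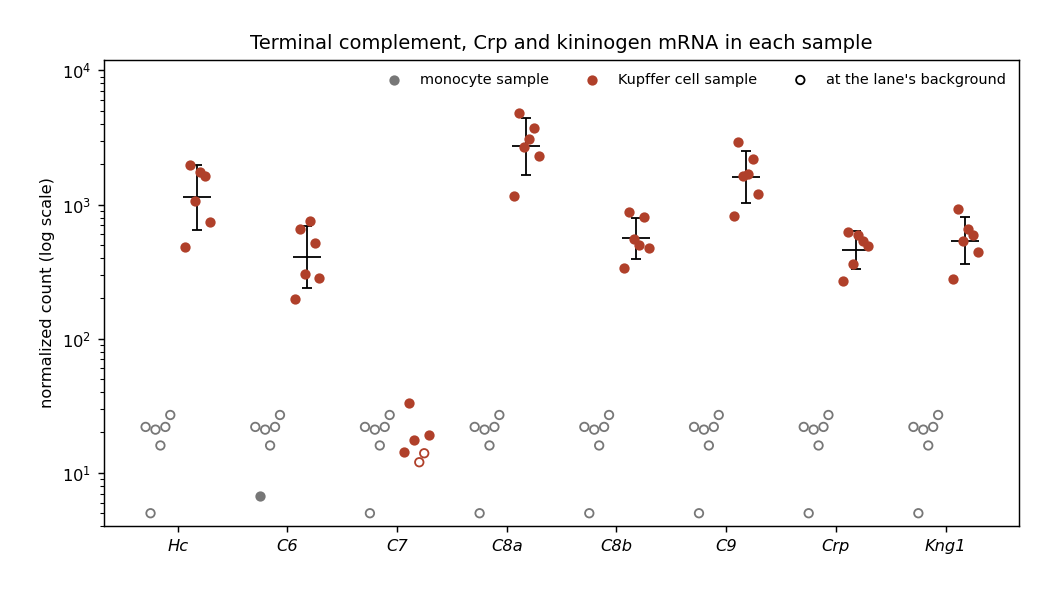
Normalized counts (log scale) of the 8 genes in each of the 6 monocyte samples (grey) and 6 Kupffer cell samples (red), samples 1 to 6 from left to right; open circles are values at the background of the lane, and bars show the geometric mean and SD of log2 values where all 6 samples of a group were above it. In 7 genes the Kupffer cell samples lie above all monocyte samples, and C7 is at no more than 32.9 normalized counts in any sample.

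In the 250 bases before and 50 bases after the start of transcription, 4 short motifs of factors active in hepatocytes or of the core promoter were searched on both strands. RefSeq promoters (GRCm38.p6) were found for 7 of the 8 genes, all but Kng1. The motifs were GTTAAT, any base and ATTAAC for HNF1 with up to 2 mismatches in all, TTGCNNAA for C/EBP, TGTTTGC for FOXA and TATAAA for the TATA box. They were held by 1.36%, 10.8%, 5.07% and 13.6% of 32851 promoters of this length. An HNF1 match with 1 mismatch lay in the promoter of Hc, with its first base at -81 from the start. The HNF1 motif reads the same on both strands, so any match to it is found on both. A C/EBP match lay in that of C9, and 2 FOXA matches in that of C8b. C8a and C6 held none of the 4. The TATAAA matches had their first base at -239 in Hc, at -6 on the opposite strand in C7 and at -31 in Crp. The promoters of Hc, C8a, C8b and C9 are given because C8a and C9 had the steadiest ratio, C8a and C8b encode chains of 1 protein and Hc holds the HNF1 match. Capitals mark the matches.
Hc (chr2:35061363-35061662, minus strand): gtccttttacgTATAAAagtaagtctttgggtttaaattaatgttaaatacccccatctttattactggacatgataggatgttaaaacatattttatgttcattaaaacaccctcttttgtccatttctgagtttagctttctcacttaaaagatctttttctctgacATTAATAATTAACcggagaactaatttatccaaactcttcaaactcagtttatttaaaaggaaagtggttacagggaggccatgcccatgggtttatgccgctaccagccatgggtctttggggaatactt
C8a (chr4:104876349-104876648, minus strand): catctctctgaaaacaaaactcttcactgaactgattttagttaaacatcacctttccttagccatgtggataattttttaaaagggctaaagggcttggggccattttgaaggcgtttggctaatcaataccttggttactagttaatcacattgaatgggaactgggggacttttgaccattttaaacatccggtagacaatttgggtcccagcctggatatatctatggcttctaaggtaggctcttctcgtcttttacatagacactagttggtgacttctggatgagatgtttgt
C8b (chr4:104766067-104766366, plus strand): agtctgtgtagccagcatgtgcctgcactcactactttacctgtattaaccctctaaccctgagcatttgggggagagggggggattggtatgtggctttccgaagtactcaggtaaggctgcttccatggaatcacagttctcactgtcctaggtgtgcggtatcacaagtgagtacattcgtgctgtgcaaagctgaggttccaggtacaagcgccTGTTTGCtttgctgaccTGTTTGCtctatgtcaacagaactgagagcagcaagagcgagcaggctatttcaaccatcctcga
C9 (chr15:6445096-6445395, plus strand): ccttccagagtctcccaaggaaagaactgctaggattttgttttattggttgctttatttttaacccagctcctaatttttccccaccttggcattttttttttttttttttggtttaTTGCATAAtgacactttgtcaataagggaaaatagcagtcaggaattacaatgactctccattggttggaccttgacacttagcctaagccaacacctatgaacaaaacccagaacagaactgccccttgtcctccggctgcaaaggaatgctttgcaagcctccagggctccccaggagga
C8a and C9, the pair with the steadiest ratio, share none of the matches. A match is a description of letters and not of binding.

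The 14 other complement genes of the panel were set beside these. Of them 8 rose in Kupffer cells, 4 fell and 2 did not pass the test, beside 35.1% higher and 21.4% lower among all genes tested, and the median log2 fold change of the 14 was 1.23. Among the 9 initiators of the classical and lectin pathways, 6 were higher and 3 lower in Kupffer cells. C1s, a protease of the C1 complex, was at least 49.7-fold higher (adjusted p = 3.66e-08 from limma), with all 6 monocyte samples at the background. C1ra, another of these initiators, differed by only 0.94 on the log2 scale (adjusted p = 0.00337 from limma), and its groups overlapped. The lectin pathway genes Mbl2 and Masp2 had log2 fold changes of 5.42 and 4.64 (adjusted p = 1.91e-09 and 9.86e-09 from limma), and Masp1 was at least 19.5-fold higher. For Mbl2 5 and for Masp2 4 of 6 monocyte samples were at the background, so their fitted values rest largely on listed backgrounds. The recognition chains C1qa and C1qb, which macrophages are known to make, went the other way, with log2 fold changes of -2.17 and -1.82 (adjusted p = 3.24e-05 and 0.000127 from limma). So did C4a, with -1.61 (adjusted p = 0.000168 from limma), at 1097 to 3597 normalized counts in Kupffer cells and 4819 to 9323 in monocytes. C3, on which all activation pathways converge, differed by 5.54 on the log2 scale (limma adjusted p = 2.70e-10). Cfb, a protease of the alternative pathway, differed by 1.51 (limma adjusted p = 4.37e-05). The receptor C3ar1 had -2.40 (adjusted p = 5.14e-07), and the regulator Cd55 had 0.38 (adjusted p = 0.233). Cfd, at the background in all 6 Kupffer cell and 5 monocyte samples, did not pass the test (adjusted p = 0.0823).

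**Figure D2:**
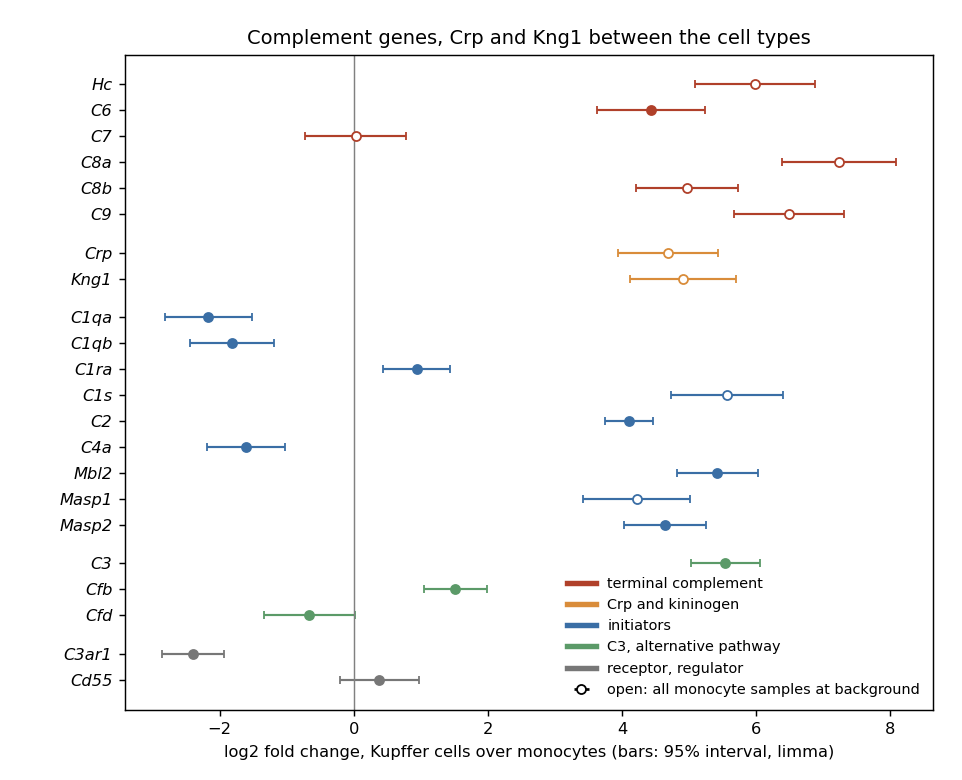
Log2 fold change of Kupffer cells over monocytes with its 95% interval from limma (n = 6 samples each) for the 8 genes and the 14 other complement genes; open circles mark genes with all 6 monocyte samples at the background, whose fitted values are no measured folds. C7 lies at 0.03, C1qa at -2.17 and C8a at 7.24. The filled circles of C6, C2, Mbl2, Masp2 and Cfd rest on 4 or 5 monocyte samples at the background.

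Markers of several cell types were set beside these genes. The counts of markers called stand beside the 35.1% of all genes called higher and 21.4% called lower. Of 8 genes of hepatocyte products outside the 8 described, C1s, C2, C3, Cfb, Masp2, Mbl2 and Arg1 were called higher in Kupffer cells and Pik3c2g was called lower. The call of Pik3c2g compares listed backgrounds, since all 6 Kupffer cell and 5 of 6 monocyte samples were at the background (9.01 in monocyte sample 2). The summed normalized counts of the 8 genes were 14493 to 38428 in Kupffer cells and 1124 to 2119 in monocytes. C3, with 10666 to 29658, made up most of each Kupffer cell sum. All but Arg1 and Pik3c2g are also among the 14 complement genes above, so the sum is no separate measure of hepatocytes. Of 14 macrophage genes 7 were measured: Mrc1 was higher in Kupffer cells and the other 6 lower, with sums of 5649 to 10050 against 15765 to 25677. Of these 6, Trem2 was at the background in all 6 Kupffer cell and 4 of 6 monocyte samples (21.4 and 23.7 in the others), so that its call rests on listed backgrounds too. Cd163, a macrophage gene of the panel that was not on this list, was higher in Kupffer cells. Its log2 fold change was 1.11 (adjusted p = 0.00691 from limma), with 87.4 to 309 normalized counts against 52.2 to 110. Clec4f, Timd4, Vsig4 and Marco, which are used as markers of Kupffer cells, were not analysed here. Of 8 T, NK and B cell genes, 5 were higher in Kupffer cells (sums of 10449 to 36965 against 4278 to 8360). Flt1, the endothelial gene measured, had 52.2 to 151 normalized counts in Kupffer cells and was called higher there (adjusted p = 2.22e-05 from limma), with 5 of 6 monocyte samples at the background and 9.01 in the other. Of 6 stellate cell and fibroblast genes 3 were higher and 1 lower (sums of 337 to 742 against 716 to 1174). Of these, Tgfb2 alone had 567 to 1017 in monocytes. Masp1, which is also among the 14 complement genes above, had 181 to 535 in Kupffer cells. Of 6 early response genes 5 were higher (sums of 14259 to 27081 against 5366 to 8617). The part of these cells in the levels was not tested.

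Next, the 7 genes above the background in all Kupffer cell samples were compared over those 6 samples. Kupffer cell sample 1 was the lowest for each of the 7. Sample 2 was the highest for 6 of them, and for C6 sample 4 was the highest. Sample 1 lay below the mean of each gene by 0.74 (C8b) to 1.24 (Hc) on the log2 scale. The share of all genes with these extremes was not computed, and sample 2 had the highest normalized total, 232593. Among the 14 other complement genes, C1qa, C1qb, C1ra, C1s, Mbl2, Masp1, C3, Cfb and C3ar1 were also lowest in sample 1 and highest in sample 2. C2, C4a, Masp2 and Cd55 shared only 1 of these extremes, and Cfd was at the background. The SD of the log2 level was 0.80 for Hc, 0.77 for C6, 0.71 for C8a, 0.65 for C9, 0.58 for Kng1, 0.51 for C8b and 0.47 for Crp, with a median of 0.38 over the 184 genes above the background in all 6 samples. Hc and C6 thus varied most, Crp and C8b least.

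Other values of sample 1 were also at the end of the range. Its hepatocyte sum, 14493, of which C3 had 10666, was the lowest of the 6 samples. Its sum of T, NK and B cell genes, 36965, of which Ccl5 had 33369, was the highest. Its macrophage sum, 5649, was close to that of sample 6, 5794. Its Gapdh, a housekeeping gene of the scaling, was at 4159 normalized counts, close to 4084 in sample 6 and above 2159 to 2741 in the other 4. Sample 2 had the highest hepatocyte and macrophage sums, 38428 and 10050, with 29658 of the former from C3. The part of these in the levels was not tested.

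**Figure D3:**
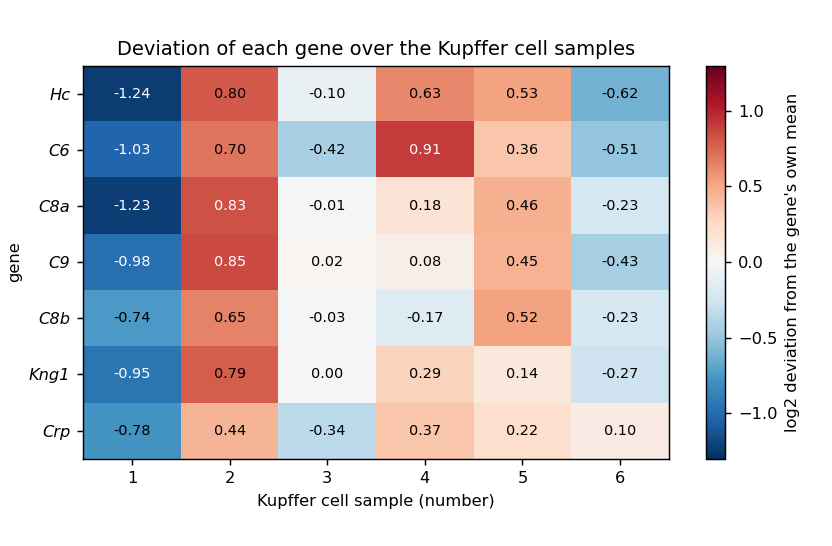
Log2 deviation of each gene from its own mean over the 6 Kupffer cell samples (columns), with the value in each cell. Sample 1 is lowest in all 7 genes, and sample 4 is at 0.91 for C6 but -0.17 for C8b.

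The ratio of 2 genes within a lane does not depend on the factor by which the lane was scaled. Each probe catches its target with its own efficiency, so the ratio is one of counted reporters and not of mRNA molecules, and only its variation over samples is read here. Over the 21 pairs of the 7 genes, the SD of the log2 ratio ran from 0.15 to 0.55 with a median of 0.31, beside 0.52 over all pairs of the 184 genes. It was under 0.3 in 10 of the 21 pairs and in 16.3% of all pairs. In 20 of the 21 pairs the ratio varied less than either gene. The share of all pairs of the 184 genes for which this holds was not computed, so the count only describes these pairs.

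C8a and C9 kept the steadiest ratio. C8a had 1.42 times the counts of C9 in sample 1, 1.66 in sample 2, 1.65 in sample 3, 1.81 in sample 4, 1.71 in sample 5 and 1.93 in sample 6. These values lie within a 1.36-fold range, while C8a itself ran from 1160 to 4836. The SD of this log2 ratio was 0.15, and counting error alone would give 0.06. Without sample 1 the SD was 0.10. C9 to Kng1 and C8a to Kng1 followed with SDs of 0.18 (0.12 without sample 5) and 0.20, so the gene of kininogen kept step with C8a and C9 as closely as C8b did with C9 (0.20).

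C8a and C8b are adjacent protein-coding genes on chromosome 4 of GRCm38.p6. Their ratio was less steady than that of C8a and C9, which lies on chromosome 15. C8a had 3.47 times the counts of C8b in sample 1 and 6.18 times in sample 4, with 4.66 to 5.51 in the others. The SD was 0.28, against 0.09 from counting error, and 0.17 without sample 1.

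C6 and Hc formed another pair, with 2.31 to 3.51 counts of Hc for each of C6 and an SD of 0.23. C6 kept the least steady ratios with C8b and C9. In sample 4 there were 1.53 counts of C6 for each of C8b, and 0.55 to 0.75 in the other 5 samples. For C6 to C9 these were 0.446 and 0.185 to 0.242. The SD of the log2 ratio of C6 to C8b was 0.55, and 0.17 without sample 4. For C6 to C9 it was 0.43 and 0.16, for C6 to C8a 0.41 and 0.22, and for C6 to Kng1 0.37 and 0.24. Leaving out sample 4 also lowered the SD of Hc to C9 from 0.29 to 0.13, of Hc to C8b from 0.46 to 0.27 and of Hc to C8a from 0.27 to 0.17. Hc to C9 was likewise highest in sample 4, at 1.03, and no other sample had more Hc than C9. Sample 4 had the highest Arg1 (3259 normalized counts), Masp2 (1028) and Flt1 (151) of the 6 Kupffer cell samples and the lowest sum of early response genes, 14259; the part of these in the ratio was not tested.

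The ratio of Crp was steadiest with Kng1 (SD 0.29). Its ratios with Hc, C6, C9, C8a and C8b had SDs of 0.47, 0.41, 0.39, 0.37 and 0.36. Hc was lowest against Crp in samples 6 and 1 (1.80 counts for each of Crp in sample 1), and lay between 2.92 and 3.17 in the other 4.

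**Figure D4:**
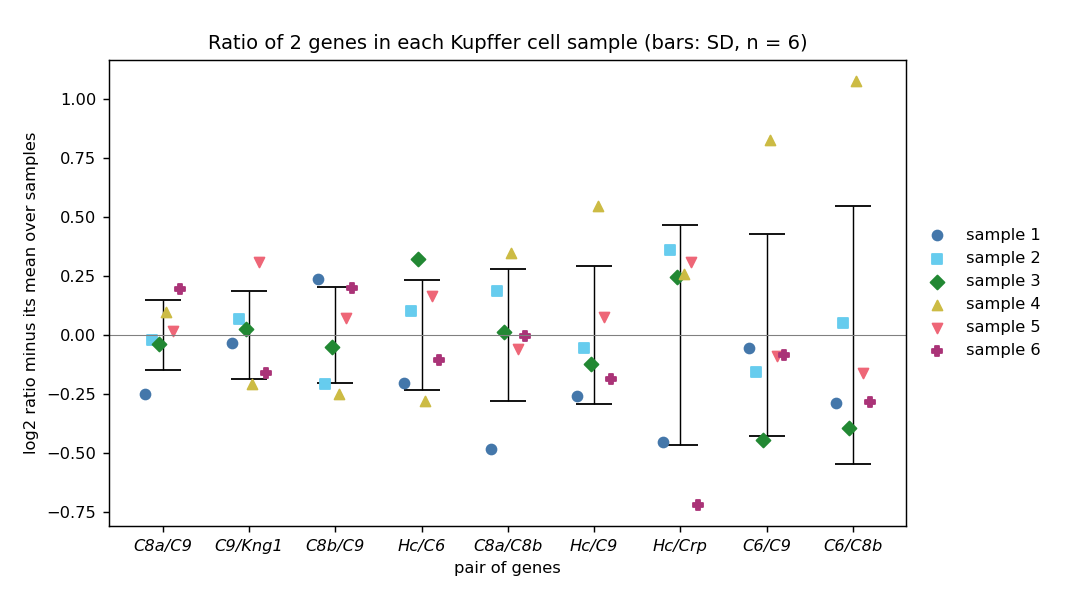
Log2 ratio of 2 genes in each Kupffer cell sample, minus the mean of that ratio over the 6 samples, for 9 pairs; bars are 1 SD (n = 6). The points of C8a to C9 lie close together, and sample 4 lies far above the others for C6 to C9 and C6 to C8b.

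The log2 levels of the 7 genes rose and fell together over the Kupffer cell samples. Pearson's r ran from 0.70 (C6 and C8b) to 0.98 (C8a and C9) over the 21 pairs, with a median of 0.89, beside 0.20 over all pairs of the 184 genes. It was over 0.8 in 18 of the 21 pairs and in 12.9% of all pairs. The factor of a lane is shared by all genes in it. On counted molecules, without the factor, the median r was 0.82 and 11 of the 21 pairs were over 0.8, as were 14.8% of all pairs. For C8a and C9 Spearman's rho was 1 (exact permutation p = 0.00278) and r had an exact two-sided permutation p of 0.00139, the smallest that 720 orders can give. With n = 6 and 1260 relations of the 7 genes with each other and with other genes, none of the 21 pairs passed after Benjamini-Hochberg adjustment (0% of the 1260 did, smallest adjusted p 0.0972, exact permutation test), while 18 of the 21 and 299 of the 1260 had an unadjusted p under 0.05.

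Part of the covariation rests on the extreme samples. Without the 2 samples farthest from the median of the first gene, the median r of the 21 pairs was 0.80, and that of C8a and C9 was 0.97. For C8b with Crp it was then 0.09 and for C9 with Crp 0.19, so these relations rest on samples 1 and 2. Without sample 4 all 21 pairs had r over 0.8, as had 22.5% of all gene pairs, and without sample 1 10 of 21 had (12.4% of all gene pairs).

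**Figure D5:**
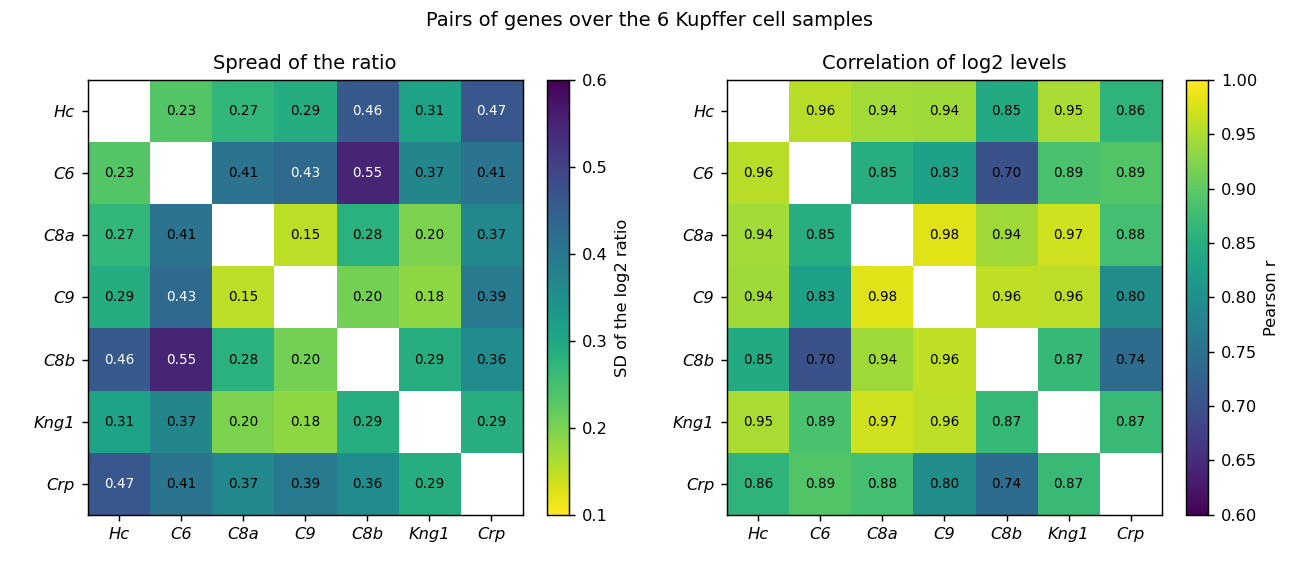
Left, SD of the log2 ratio of each pair of the 7 genes over the 6 Kupffer cell samples; right, Pearson's r of their log2 levels. C8a and C9 have the lowest SD, 0.15, and the highest r, 0.98; C6 and C8b have the highest SD, 0.55, and the lowest r, 0.70.

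Among the other 177 genes above the background in all Kupffer cell samples, with the 7 themselves left out, the 2 with the highest r to each of the 7 were taken as a description. C8a, C8b and C9 were followed by C3 (r of 0.97, 0.97 and 0.99; rho of 1, 0.94 and 1), and the next genes were Cfb for C8a and the kinase gene Map3k7 for C8b and C9 (r of 0.97, 0.94 and 0.98). C6 was followed by Plcb1, a phospholipase C gene, and C1qa (r of 0.99 and 0.97; rho of 1 and 0.94). Hc was followed by Il6ra, the gene of the interleukin 6 receptor, and C1qa (r of 0.97 and 0.96; rho of 1 for both). Crp was followed by Masp1 and Mbl2 (r of 0.98 and 0.96), and Kng1 by Cfb and Mrc1, the gene of CD206 (r of 0.98 and 0.96). The exact two-sided permutation p of these 14 relations was 0.00139 to 0.00972 and the adjusted p 0.0972 to 0.117, so none passed. C1qa, among the nearest to C6 and Hc, was lower in Kupffer cells than in monocytes, while C3, which had the highest r to C8a, C8b and C9 among those 177, was higher. Some of the 7 were closer to each other than to these, as C8a was to C9 (r of 0.98).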

How the data were processed

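The mRNA of inflammation-related genes was counted with the nCounter Mouse Inflammation V2 panel. The authors normalized the counts in nSolver 4.0, and the deposited signal of a gene in a lane is its count multiplied by 1 factor per lane from positive controls and housekeeping genes, with genes under the highest of 8 negative controls listed at that control's count, unscaled. No column belonged to any other sample. Values above the background were whole multiples (within 0.02) of 1 step per lane, the factor, and division by it gave the counted molecules.

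Groups follow the sample titles. Differences were tested on log2(value + 1) over 248 genes with limma 3.58.1 in R 4.3.3 (two-sided, Benjamini-Hochberg), which understates changes of low genes; the 4 housekeeping genes given were left out. Ratios and correlations over Kupffer cell samples used the same log2 values, with exact permutation tests. Python 3.11.15, numpy 2.4.6, scipy 1.17.1, pandas 2.3.3 and matplotlib 3.10.9 served for the rest. The steps were tested on simulated data. The 8 genes and all lists were chosen with earlier results of these data known. Besides the 8, the genes named are the other complement genes, the 2 panel genes most like each and cell type markers. Gapdh, Cd163 and the genes singled out in 1 sample were chosen after their values were seen. The p-values measure the spread between these pools only. Where monocyte samples were at the background, their part of the spread is that of the listed negative controls. The alternatives changed the pseudocount, low-value filter, scaling, a replicate block, left-out samples, the test, the background and the measures of spread and correlation.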

Additional observations from a re-analysis of the deposited data

Results flagged for a closer look

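Over the 6 Kupffer cell samples, the levels of 7 genes and the ratios of their 21 pairs were searched for a sample far from the rest by Dixon's test, which flags about 1 in 20 such groups by chance; 2 of 28 were flagged. In both it was sample 4. For the ratio of C6 to C8b its gap to the next sample took up 0.699 of the whole range, and for C6 to C9 0.694, both past the 95% limit for 6 samples. The ratios share C6 and are not independent. In sample 4 C6 had 759 normalized counts, the highest of the 6 samples, C8b 497 and C9 1700.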

How the results depend on the processing

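All 7 genes called higher stayed called, and none was called lower, under each of the 21 alternatives run for the test between cell types, with log2 fold changes of 3.88 to 4.64 for C6 and 6.62 to 7.64 for C8a. The largest adjusted p, 0.00521, came from the exact permutation test and was the same for all 7. Groups that do not overlap give the smallest p of that test, 0.00216, whatever the size of the difference. The filter for genes above the background in at least 6 samples left out C7. The 7 genes passed it by their 6 Kupffer cell samples alone, so passing it is no separate support. The sign of C7, not called, turned with a pseudocount of 10 (-0.0093), after rescaling to the median gene (-0.22), when sample 2 of the Kupffer cells (-0.15) or of the monocytes (-0.29) was left out, and it ran from -0.29 to 0.16 over the left-out samples and to 0.36 with the higher of listed and scaled backgrounds. Of the other complement genes, C1ra lost its call after quantile normalization (adjusted p = 0.0961), and Cfd was called lower after rescaling to the median gene (0.0241) and without monocyte sample 2 (0.000705), where nearly all its values are background. Rescaling to the median gene moved the median of all genes from 0.05 to -0.21 on the log2 scale. The replicate block changed no call: 7 of the 8 genes stayed higher. Same-numbered samples deviated together with correlations of -0.15 to 0.29, over 0.1 in 2 of 6. These cannot decide whether the numbers pair the samples, since different cells of the same mice need not deviate together.

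Over the Kupffer cell samples, the median r of the 21 pairs was 0.73 after quantile normalization, with 9 pairs over 0.8, while over all gene pairs the median r fell from 0.20 to -0.0074 and the share over 0.8 from 12.9% to 6.4%. On counted molecules without the factor, an alternative chosen after seeing the data, 11 pairs were over 0.8 (median r 0.82). Leaving out each sample gave a median r of 0.79 (without sample 1) to 0.98 (without sample 4) and 10 to 21 pairs over 0.8. No pair had an adjusted p under 0.05 under any alternative. The median SD of the log2 ratio was 0.22 to 0.35. Without sample 4 the steadiest pair was Hc and C9, without sample 5 C9 and Kng1, and by median absolute deviation C6 and C9. The cause of these shifts was not tested. The count of 6 samples per group and the background limit the low genes.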
